A study of Mus musculus with 4 samples.

Results

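The 71 histone genes of the table are those rows of the gene exon sense category whose symbol starts with Hist1h, Hist2h, Hist3h, Hist4h, H2af, H3f3 or H1f, leaving out the spermatid linker histone H1fnt, and they were chosen by symbol, out of 12415 rows of the category. They comprise 8 genes of the linker histone H1, and among the core histones 21 of H2A, 17 of H2B, 13 of H3 and 12 of H4. The RNA came from whole testes of adult C57Bl/6J mice at postnatal day 60, in 2 Nef-sp-/- and 2 Nef-sp+/- libraries. The Nef-sp+/- controls are heterozygous for the same allele, a deletion of 23 bp out of frame in Nef-sp, which encodes a testis-specific nuclear 3′ to 5′ exoribonuclease, so wild-type testis was not part of the comparison. The allele was made with Cas9 nickase and a pair of guide RNAs in one-cell embryos, and the line descends from female founders mated to C57Bl/6J Rj males. The libraries were strand-specific and were made from total RNA after removal of rRNA, so that transcripts without a poly(A) tail were counted, and the question is whether the histone transcripts of the testis differ when this exoribonuclease is disrupted. The labels do not say whether same-numbered animals were littermates, and p-values measure the spread between the libraries of a genotype.

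Nucleosomes are built from the core histones H2A, H2B, H3 and H4, and linker histone H1 binds the DNA between them. Replication-dependent histone genes lie in clusters, lack introns, and give mRNAs that end in a conserved stem-loop in place of a poly(A) tail. The stem-loop is bound by SLBP and its 3′ end is trimmed by the exoribonuclease ERI1. Replication-independent variants such as H3.3 and H2A.Z are usually transcribed from genes with introns and are polyadenylated. In the testis, spermatogonia and spermatocytes exchange somatic histones for testis variants, and in elongating spermatids most histones are replaced by transition proteins and then by protamines.

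Between 20659865 and 34442517 reads were assigned per library, of which 15815159 to 26618821 were gene exon sense reads. The disrupted gene itself, annotated as 2610020H08Rik, had normalized counts of 1843 and 1693 in the controls against 407 and 497 in the knockouts. Its log2 fold change was -1.97 (adjusted p = 4.1e-06, edgeR), in the direction of the labels. It was the single feature called among the 10728 features that passed the expression filter. For a normalized count, the reads of a feature were scaled by the TMM-adjusted size of its library, set against the average library, and all fold changes compare Nef-sp-/- with the Nef-sp+/- controls.

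The histone genes lie on 8 chromosomes of the mouse genome build mm9, with 51 of the 71 on chromosome 13. The 50 genes of the Hist1 cluster span chr13:21807632-24026720. In the annotation, 61 of the 71 have a single exon block. Genes are called replication-dependent here if their symbol starts with Hist, and replication-independent if it starts with H2af, H3f3 or H1f. A stem of 6 paired bases with a loop of 4 bases, its arms reading GGNNCT and AGNNCC, was looked for within 150 bases after the stop codon. It was found in 57 of the 60 replication-dependent genes with an annotated stop codon, in 1 of 8 replication-independent ones, and in 0.328% of all 21930 protein-coding genes. The replication-independent gene was H2afx, whose gene is known to give both kinds of transcript ends. No match was found in Hist1h2an, Hist2h2bb and Hist2h2be. The sequences below show how little the element varies between genes with very different levels, with the 16 bases of stem and loop in capitals and 5 bases on either side.
Hist1h1a: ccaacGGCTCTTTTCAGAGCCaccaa
Hist1h1t: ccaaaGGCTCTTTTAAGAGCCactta
Hist1h2ba: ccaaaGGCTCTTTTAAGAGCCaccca
H2afx: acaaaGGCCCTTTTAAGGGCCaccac
Hist1h4j: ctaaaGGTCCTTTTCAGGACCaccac
Hist4h4: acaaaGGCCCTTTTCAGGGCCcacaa
The core of Hist1h1a was shared by 34 genes, that of Hist1h1t and Hist1h2ba by 9, that of Hist4h4 by 7 genes, all of H4, and that of Hist1h4j by 2, also of H4. The core in H2afx was found in no other histone gene. The start of the core lay between 21 and 58 bases after the stop codon.

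The upstream region is shown for the testis-specific H2B gene Hist1h2ba, the most abundant of the histone genes here, and its divergent neighbour Hist1h2aa, which encodes the testis-specific H2A. RefSeq places the 250 bases before the start of Hist1h2ba at chr13:23934157-23934406 on the minus strand of build GRCm38.p6, and 220 of these bases are also among the 250 upstream of Hist1h2aa on the other strand. Capitals mark the CCAAT box (CCAAT or ATTGG), the octamer (ATTTGCAT or ATGCAAAT) and the TATA box (TATAAA, sought on the strand of the gene).
Hist1h2ba: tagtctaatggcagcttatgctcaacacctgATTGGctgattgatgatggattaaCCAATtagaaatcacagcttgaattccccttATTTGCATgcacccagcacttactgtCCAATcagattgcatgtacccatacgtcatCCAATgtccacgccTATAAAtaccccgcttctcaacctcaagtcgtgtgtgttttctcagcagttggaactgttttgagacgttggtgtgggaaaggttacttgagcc
The stretch holds 4 CCAAT boxes, 1 octamer and 1 TATA box. RefSeq entries matched 64 of the 71 genes. A CCAAT box was present in 78.1% of these 64 upstream regions, against 34.5% of all 27025 regions of the same length. Among the replication-dependent genes it was in 100% of the H1, H2A and H2B regions and 77.8% of the 9 H3 regions. In the 11 H4 regions the share was 27.3%, below that of all regions, and in the 8 replication-independent ones 50.0%. Divergent neighbours such as Hist1h2ba and Hist1h2aa share most of their region, so the regions are not independent. The octamer was present in 21.9% of the histone genes' regions against 1.61% of all, and among the replication-dependent core histone genes it was found in H2A (43.8% of 16) and H2B (42.9% of 14) but in none of the 9 H3 or 11 H4 regions. Among the 8 replication-independent regions it was found in that of H3f3b. The TATA box was present in 37.5% against 8.12%. The upstream region of Hist1h1t, the testis-specific linker histone gene, held 1 CCAAT box and neither the octamer nor the exact letters TATAAA. The similar letters TATATAA, which were not sought, lie after its CCAAT box, so the absence of a TATA box there is not shown.

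The histone genes together took 0.451% to 0.538% of the gene exon sense reads, and these reads were concentrated in few genes. Hist1h2ba alone held 18.5% of the histone reads, the 3 most abundant genes 43.3% and the 10 most abundant 75.3%. Per kb of exon in the GENCODE vM1 models, levels ranged from 43678 normalized reads for Hist1h2ba (SD 4403, n = 4 libraries) to 1.11 for Hist2h3c1. There were 18 genes at 1000 or more, 30 between 100 and 1000, and 23 lower. The second in this order was Hist1h1t with 10386 reads per kb (SD 750), and its range overlapped that of the third, Hist1h4j, at 9948 (SD 531). Hist1h2bn at 7196 and Hist1h2aa at 7079 followed, again with overlapping ranges, and then Hist1h1a at 5348. The 3 genes known as testis variants, Hist1h2ba, Hist1h1t and Hist1h2aa, were all among the highest 5 per length. Of the replication-independent genes the highest per length was H3f3b at 4452 reads per kb, ninth in the order, which encodes H3.3. The annotated model of Hist1h2ba covers its coding part and no stem-loop, so its level per kb rests on 389 annotated bases. The gene models over which the authors counted reads are not given in the sources used here and may differ in length. The 2955-base model of Hist2h3c1 overlaps that of Hist2h2aa1 on the same strand, yet 8160 reads were counted for Hist2h2aa1 and few for Hist2h3c1. The level of Hist2h3c1, and ranks per length, are therefore uncertain.

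**Figure D1:**
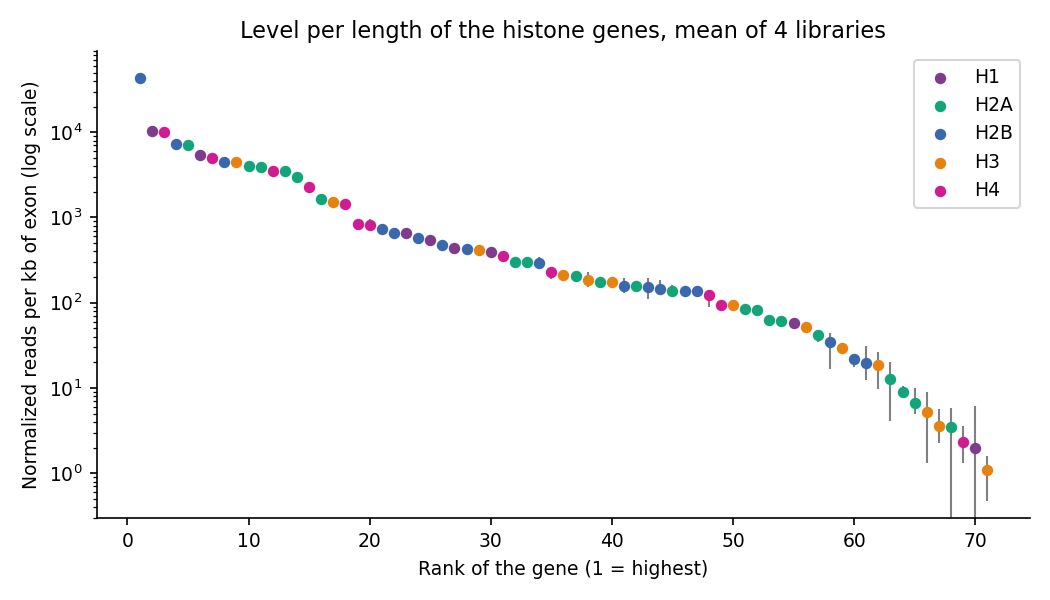
The 71 histone genes ordered by level, with the rank on the horizontal axis and the normalized reads per kb of annotated exon on a log vertical axis. Points are means of 4 libraries coloured by class, grey lines run from the lowest to the highest library, and a line from a library at 0 runs to the foot of the axis. Hist1h2ba at 43678 stands apart from the second gene at 10386.

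Many histone genes are near-identical, and the number of 50-base stretches found nowhere else in the genome, counted at the read length, limits how well their counts can be assigned. In 46 of the 71 genes at least 50% of the stretches were unique. Hist2h2aa1 and Hist1h2ao had none, yet 1789, 3010, 1662 and 1699 reads were counted for Hist2h2aa1 in Nef-sp+/- replicates 1 and 2 and Nef-sp-/- replicates 1 and 2. If the authors' gene models cover the same bases, reads with several matches were counted at least in part. How such reads were shared is not given in the sources used here. Of the most abundant genes, Hist1h1t and Hist1h1a had 100% unique stretches, Hist1h2aa 97.7%, Hist3h2a 97.8% and H2afx 93.7%, while Hist1h2ba had 61.8%, H2afz 59.4% and Hist1h4j 43.7%. Hist1h2bn, also high per length, had 13.55%, and 86.45% of its stretches were shared with other histone genes.

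No histone gene was called between genotypes. Of the 71 genes, 61 passed the expression filter, and none of the 61 had an adjusted p below 0.05 (0.922 to 0.996, edgeR quasi-likelihood test with Benjamini-Hochberg adjustment), where 0.00932% of all 10728 features did. DESeq2 also called 0. Before adjustment, 10 of 61 genes had p below 0.05 by edgeR, against 4.8% of all features. Of the 10 genes, 8 were lower in Nef-sp-/-, as were 304 of the 515 features with such a p. By DESeq2, 4 of 61 genes had p below 0.05, and the share of all features by DESeq2 was not computed. Fitted fold changes were negative for 45 of 61 genes, or 73.8%, against 50.1% of all features, and their median was -0.09 on the log2 scale against -0.00022 over all features. In 22 genes, or 36.1%, both Nef-sp-/- libraries lay below both Nef-sp+/- libraries, which holds for 18.1% of all features. In 4 genes, or 6.56%, both lay above, against 16.4% of all features. When scaled by the reads of all categories, 27 of 61 genes lay below and 4 above, against 23.7% and 11% of all features. Leaving out Nef-sp+/- replicate 2 gave 40 of 63 genes below and 11 above, against 34.9% and 33.9% of all features. Leaving out Nef-sp-/- replicate 2 gave 39 and 8 of 63, against 34% and 34%. Without Nef-sp+/- replicate 1 there were 27 of 64 below and 13 above, against 32.8% and 32.3%. Without Nef-sp-/- replicate 1 there were 24 and 15 of 62, against 33.7% and 33.6%, and the median was -0.03. The genes share a pair of libraries per genotype and, in part, reads, so these counts describe 4 libraries and are not independent.

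**Figure D2:**
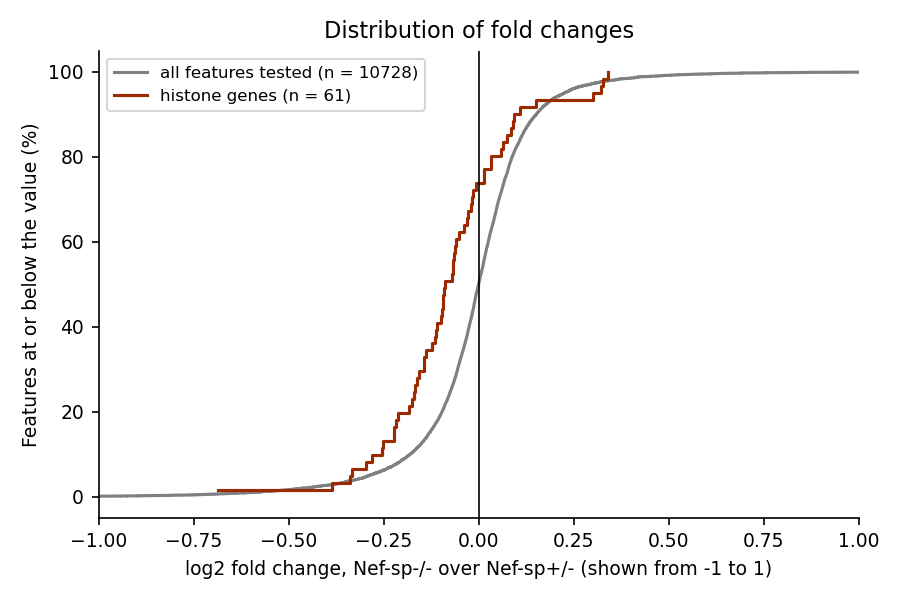
Cumulative share of features (vertical axis, percent) at or below each log2 fold change, Nef-sp-/- relative to Nef-sp+/- (horizontal axis, shown from -1 to 1), for the 61 tested histone genes and all 10728 tested features. The histone curve crosses 0 at 73.8% and the curve of all features at 50.1%.

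Among the linker histones, 6 of 7 tested genes had a negative fold change. In 3 of the 7 the genotypes did not overlap, all lower in Nef-sp-/-, against 18.1% of all features. Hist1h1t had normalized counts of 10219 and 9723 in Nef-sp+/- against 8640 and 9180 in Nef-sp-/-. Both Nef-sp-/- libraries lay below both controls, and the log2 fold change was -0.16 (SE 0.062, adjusted p = 0.954, edgeR). Hist1h1a, the gene of a somatic-type H1 that is abundant in spermatogonia and spermatocytes, had 4058 and 4234 against 3859 and 3828, again without overlap (log2 fold change -0.11, SE 0.058, adjusted p = 0.954). The replacement linker histone gene H1f0 had 318 and 270 against 285 and 285, with overlapping genotypes, and H1fx, a replication-independent linker histone gene, had 486 and 484 against 448 and 446, without overlap. The exception in sign was Hist1h1c, with 1002 and 979 against 978 and 1135.

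Among the H2A genes, 14 of 18 had a negative fold change. In 6 of the 18 the genotypes did not overlap, all lower in Nef-sp-/-, against 18.1% of all features. H2afx encodes H2A.X, which is phosphorylated at DNA breaks and on the sex chromosomes of spermatocytes, and had 4333 and 4255 in Nef-sp+/- against 3570 and 3844 in Nef-sp-/-. The Nef-sp-/- mean was 86.3% of the control mean, with a log2 fold change of -0.21 (SE 0.061, 95% confidence interval -0.35 to -0.08) and an unadjusted p of 0.00543 in edgeR that became 0.954 when adjusted. Hist3h2a had 3437 and 3467 against 2978 and 3134 (log2 fold change -0.18, SE 0.059), and Hist1h2ai had 4268 and 4215 against 3816 and 3785 (-0.16, SE 0.057). In both genes each Nef-sp-/- library was below each control, and neither was called (adjusted p = 0.954, edgeR).

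The testis H2A gene Hist1h2aa had 2962 and 2736 against 2554 and 2790, so that Nef-sp-/- replicate 2 lay between the controls. H2afz, which encodes H2A.Z of promoter nucleosomes, had 7428 and 6891 against 7020 and 7231, with a log2 fold change of -0.01 (95% confidence interval -0.14 to 0.13). The macroH2A genes H2afy and H2afy2, whose products mark silent chromatin, had 1086 and 1073 against 1064 and 1074, and 23.0 and 19.0 against 19.6 and 16.6. H2afj had 102 and 120 against 129 and 110. The genotypes of these 5 genes overlapped.

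Among the H2B genes, 13 of 16 had a negative fold change. In 6 of the 16 both Nef-sp-/- libraries lay below both controls, and in 2 above, against 18.1% and 16.4% of all features. Hist1h2ba, which encodes the testis H2B that enters chromatin in spermatocytes, had 19273 and 16725 in Nef-sp+/- against 15120 and 16845 in Nef-sp-/-. Nef-sp+/- replicate 1 was the highest and Nef-sp-/- replicate 1 the lowest, while the other two libraries differed little, and the log2 fold change was -0.17 (SE 0.080, adjusted p = 0.954, edgeR). Without Nef-sp+/- replicate 2 this gene was called (log2 fold change -0.27, adjusted p = 0.0012), in a fit in which 252 features in all were called, while its log2 fold change was -0.06 without Nef-sp+/- replicate 1, -0.10 without Nef-sp-/- replicate 1 and -0.25 without Nef-sp-/- replicate 2 (adjusted p = 0.991 to 0.998, edgeR). Hist3h2bb, annotated as a pseudogene next to Hist3h2a on chromosome 11 and on the opposite strand, had the smallest p of the histone genes and the lowest fold change. Its counts were 84.0 and 91.5 against 58.9 and 50.9, a Nef-sp-/- mean of 62.5% of the controls (log2 fold change -0.69, SE 0.174, adjusted p = 0.922).

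Of the H3 genes, 4 of 9 had a negative fold change, and the median was 0.01. Both Nef-sp-/- libraries lay below both controls in 2 of the 9 and above in 2, against 18.1% and 16.4% of all features. H3f3b had 14384 and 13252 against 11895 and 13471, overlapping, with a log2 fold change of -0.12 (SE 0.074). H3f3a, which encodes the same H3.3 protein, had 1504 and 1398 against 1471 and 1454 and a log2 fold change of 0.01 that was -0.01 when scaled by the reads of all categories. Hist1h3f had 176 and 155 against 228 and 187 and was 1 of the 4 genes with both Nef-sp-/- libraries above both controls (log2 fold change 0.34, SE 0.131, adjusted p = 0.954). The other 3 were Hist2h2bb, Hist1h2bh and Hist1h3c, named after their values were seen.

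Of the H4 genes 8 of 11 had a negative fold change. In 5 of the 11 the genotypes did not overlap, all lower in Nef-sp-/-, against 18.1% of all features. Hist1h4j, the most abundant of them, had 4425 and 4253 against 3926 and 4387, overlapping (log2 fold change -0.06, SE 0.067). Hist4h4, at chr6:136752589-136752900 and close to H2afj, had 303 and 266 against 216 and 244, without overlap (log2 fold change -0.30, SE 0.111, adjusted p = 0.954, edgeR). The H2A.Z paralog gene H2afv, also on the list to be named, has no row in the category.

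**Figure D3:**
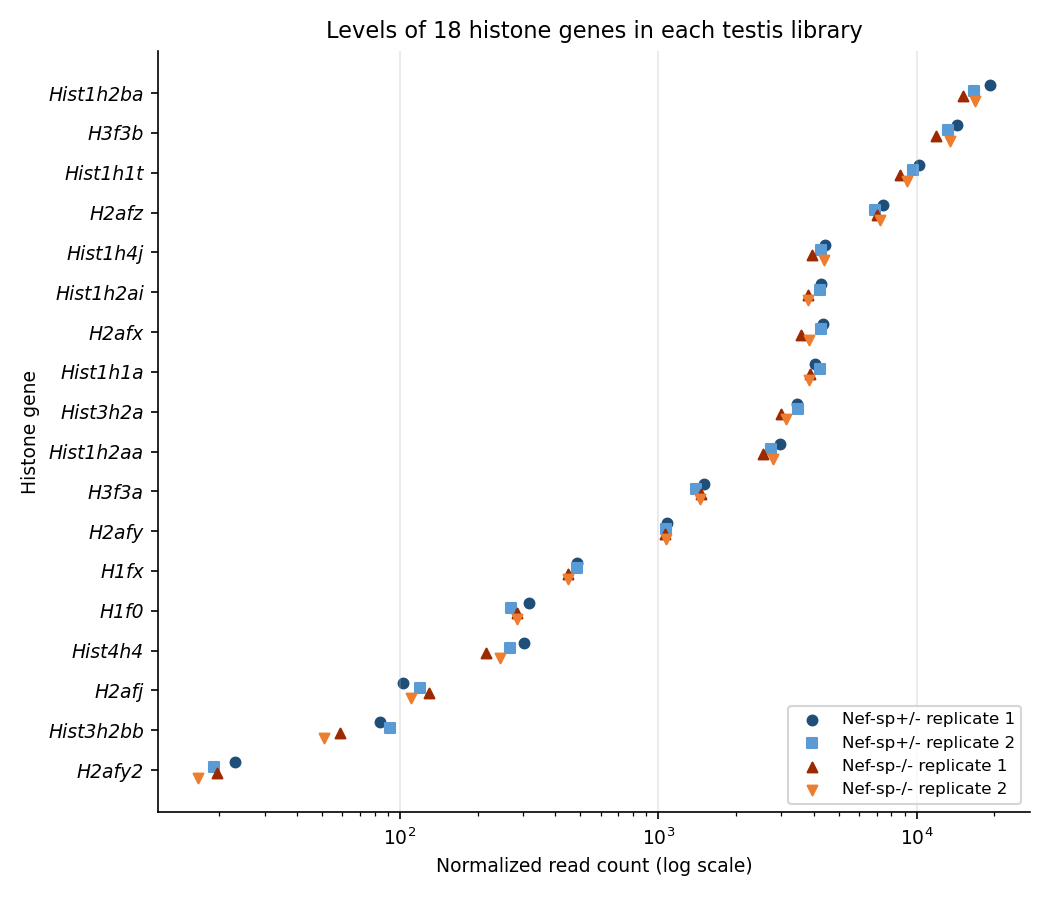
Normalized read counts (horizontal log axis) of 18 histone genes (vertical axis) in each of the 4 libraries. Hist1h2ba lies between 15120 and 19273, and the genotypes separate without overlap in genes such as H2afx and Hist3h2bb but overlap in H2afz and H3f3a.

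**Figure D4:**
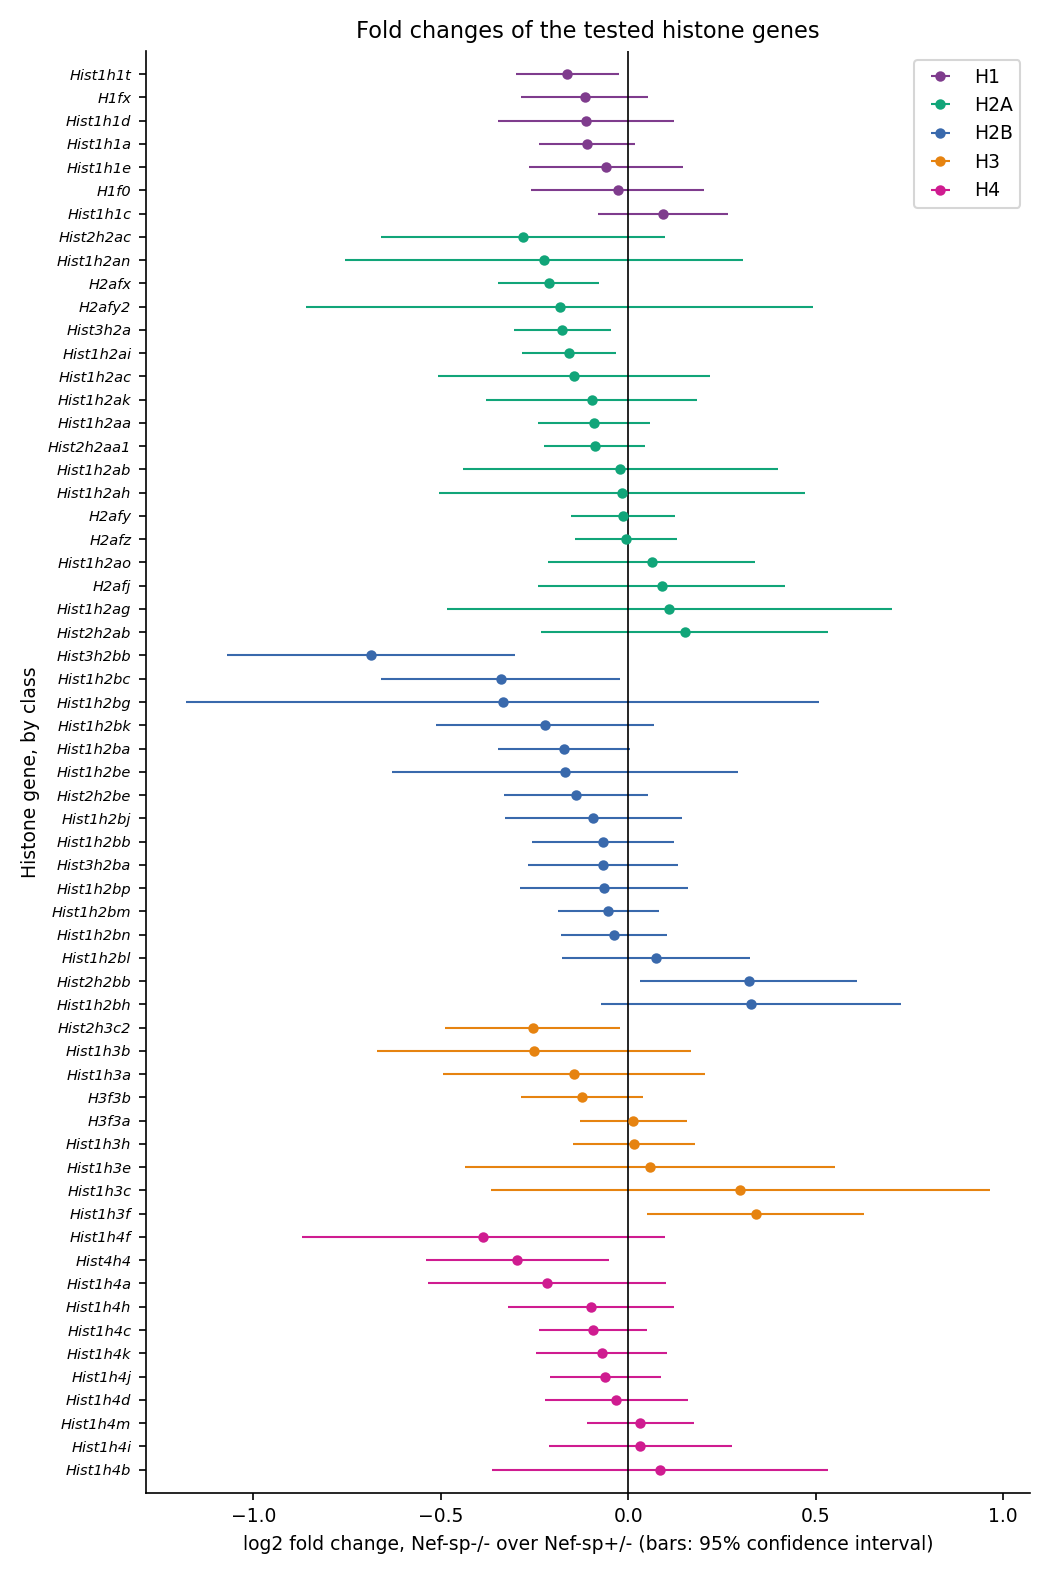
The log2 fold changes, Nef-sp-/- relative to Nef-sp+/- (horizontal axis), of the 61 tested histone genes (vertical axis), coloured by class, with 95% confidence intervals as bars. The points run from -0.69 (Hist3h2bb) to 0.34 (Hist1h3f), and 45 of 61 lie left of 0.

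By gene kind, 38 of 52 tested replication-dependent genes had a negative fold change with a median of -0.09, and 7 of 9 replication-independent genes with a median of -0.03. The kind was set by the symbol alone. The testis variants Hist1h2ba, Hist1h1t and Hist1h2aa therefore count as replication-dependent, and H2afx, which has a stem-loop, as replication-independent. The genotypes did not overlap in 20 of the 52 replication-dependent genes that were lower and 4 that were higher. Of the 9 replication-independent genes, 2 were lower without overlap. Over all features, 18.1% were lower and 16.4% higher without overlap. Genes with mostly unique stretches gave a median of -0.10 over 42 genes, and the others -0.04 over 19. Among the 18 genes with a mean normalized count of at least 1000, 15 were negative and 7 lay below the controls without overlap, where 1602 of the 3659 features at this level were negative and 519 lay below without overlap.

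The summed histone counts were 97924 and 92520 in Nef-sp+/- libraries, against 85101 and 91303 in the knockouts. Both Nef-sp-/- sums were below both controls, and their mean was 92.6% of the control mean, but Nef-sp-/- replicate 2 and Nef-sp+/- replicate 2 lay close together. The difference of -0.11 on the log2 scale had an exact two-sided permutation p of 0.333, which is the smallest that 2 against 2 libraries allow. The log2 ratios of the class sums were -0.13 for H1, -0.10 for H2A, -0.13 for H2B, -0.10 for H3 and -0.06 for H4. Those of H1 and H2A did not overlap between genotypes (exact permutation p = 0.333) and those of the other classes did (exact permutation p = 0.667). Much of the H1, H2B and H3 sums came from Hist1h1t, Hist1h2ba and H3f3b. These genes held 10.3%, 18.5% and 14.4% of all histone reads, and their classes 17.2%, 26.9% and 17.5%. The H3 sum does not stand for most H3 genes, as 5 of the 9 tested had a positive fold change. The replication-dependent genes, set by symbol and so including the testis variants, summed to a log2 ratio of -0.12 and the replication-independent ones to -0.09. Without Nef-sp-/- replicate 1 the ratio was -0.06 for all histone genes, -0.09 for H1, -0.07 for H2A, -0.07 for H2B, -0.03 for H3 and -0.0081 for H4. Without Nef-sp+/- replicate 1 it was -0.07 for all histone genes, -0.06 for H2B and -0.05 for H3. Without Nef-sp+/- replicate 2 it was -0.15 for all, -0.21 for H2B and -0.15 for H3, and without Nef-sp-/- replicate 2 it was -0.16 for all, -0.20 for H2B, -0.17 for H3 and -0.12 for H4.

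The library in which a gene was highest or lowest was not evenly spread. Of the 61 tested genes, 28 were highest in Nef-sp+/- replicate 1, against 27.2% of all features, and 26 were lowest in Nef-sp-/- replicate 1, against 25.3% of all features. The members' median deviation from the mean of the 4 libraries was 0.06 and 0.02 in the controls and -0.07 and -0.0021 in the knockouts, on the log2 scale. Of the 18 most abundant genes, 12 were highest in Nef-sp+/- replicate 1 and 14 lowest in Nef-sp-/- replicate 1.

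Markers of elongating spermatids, the cells in which histones are being replaced, stood apart in Nef-sp+/- replicate 1. All 8 markers had their lowest value in this library, and their summed normalized counts were 415203 in it, against 517366 in Nef-sp+/- replicate 2, 526266 in Nef-sp-/- replicate 1 and 511787 in Nef-sp-/- replicate 2. None of the 8 was at 0 and none was called. The 12 spermatocyte markers summed to 48161 to 50835, with overlapping genotypes. The 8 round spermatid markers summed to 39150 and 40051 in the controls against 38693 and 39093 in the knockouts, so that both knockouts lay below both controls, as they did for the summed histone counts. Of the other cell types, the 7 Leydig cell markers tested summed to 19396 and 19577 in the controls against 18533 and 16105 in the knockouts, without overlap, although 5 of the 7 had a positive fold change (median 0.08) and the lower sum came from Cyp17a1 (-0.27) and Cyp11a1 (-0.35). The sums of the spermatogonial (2087 to 2213), Sertoli (21702 to 23102), myoid (6345 to 7159) and macrophage (1142 to 1312) markers overlapped. The 3 blood markers summed to 471 and 545 against 435 and 454, without overlap. Of these, Hba-a2 (log2 fold change -0.57) and Hbb-b1 (-0.75) were lower. Alas2 was higher without overlap, with 218 and 187 against 226 and 244 (0.23). No marker of any list was called. The part of these cell types in the histone values was not tested, and in whole testis fewer cells of a type and less RNA per cell cannot be told apart.

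**Figure D5:**
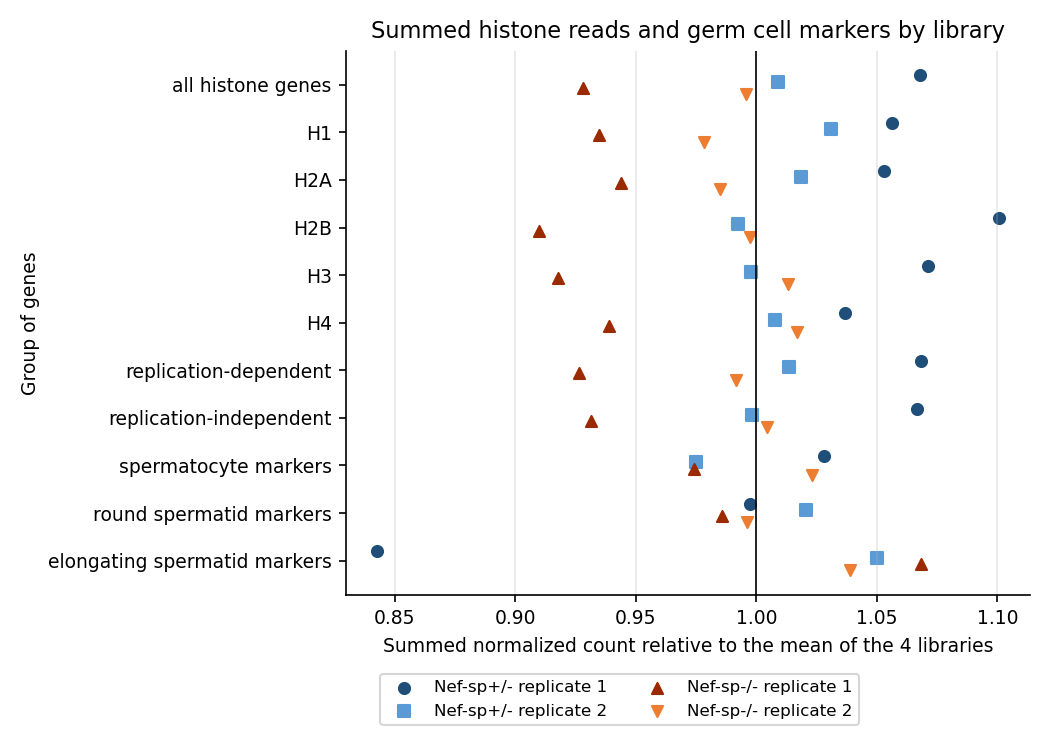
Summed normalized counts of each histone class and of 3 marker lists (vertical axis) in each library, relative to the mean of the 4 libraries (horizontal axis). Nef-sp+/- replicate 1 is the highest for every histone class and the lowest for the elongating spermatid markers, and Nef-sp-/- replicate 1 is the lowest for every histone class.

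Genes that process histone mRNA 3′ ends were tested for 16 of 23 symbols listed, and none was called. Of these, 6 had a positive and 10 a negative fold change, with a median of -0.01. Slbp, the stem-loop binding protein gene, had 1604 and 1601 in Nef-sp+/- against 1599 and 1593 in Nef-sp-/- (log2 fold change -0.01, SE 0.060). Eri1, the exoribonuclease that trims histone mRNA ends, had 313 and 330 against 290 and 309 (-0.11, SE 0.092). The smallest p values of the list belonged to Lsm1, part of the complex that binds the oligouridylated tail of histone mRNA, with 292 and 265 against 350 and 304 (0.24, SE 0.104), and to Upf1, a helicase of histone mRNA decay, with 2054 and 1925 against 1839 and 1827 (-0.12, SE 0.062).

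Histone chaperone genes showed no common direction either, with 12 of 22 positive and a median of 0.01. Nap1l1, a chaperone of H2A and H2B, had 2622 and 2474 against 2240 and 2320 (log2 fold change -0.16, SE 0.061), and Ubn2, a subunit of the HIRA complex that deposits H3.3, had 1450 and 1359 against 1504 and 1647 (0.17, SE 0.069). Of the genes of histone replacement, 6 of 9 had a positive fold change. Among these, Tnp1, Tnp2, Prm1 and Prm2 are also in the list of elongating spermatid markers, so the lists are not separate. The transition protein gene Tnp1 had 60173 and 69754 against 74025 and 72979 (0.18, SE 0.075), and Tnp2 had 78701 and 94202 against 100091 and 94462 (0.17, SE 0.084), both lowest in Nef-sp+/- replicate 1. Of 19 S phase genes 10 were positive, with a median of 0.01. Their smallest p values belonged to Mcm4, of the replicative helicase, with 88.6 and 94.4 against 75.1 and 73.4, and to Ccna2, cyclin A2, with 58.7 and 58.4 against 68.1 and 81.6. No gene of these lists was called by edgeR.

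The 10 genes below the expression filter had at most 13 reads in a library. Hist1h1b, of a somatic H1, had 0 and 0 reads in the controls and 4 and 1 in the knockouts, and Hist1h2af had 2 and 3 against 0 and 1. Hist1h3g had 1 and 1 against 4 and 4, Hist2h3c1 2 and 2 against 4 and 4, and Hist1h3d 3 and 4 against 4 and 6. The others were Hist1h2bf, Hist1h3i, Hist1h2ad, Hist1h2ae and Hist2h4. After scaling, Hist1h1b, Hist1h3g, Hist2h3c1 and Hist1h3d lay higher in Nef-sp-/- without overlap. Hist1h2af lay lower, and the others overlapped. These genes were not tested in the main fit, and with so few reads no difference can be judged.

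Antisense reads over histone exons were few, with 602 reads over 18 genes, or 0.164% of the histone exon sense reads. Of these genes, 5 were tested in the antisense category and none was called. Hist1h2ba had 26 and 60 antisense reads in the controls and 21 and 29 in the knockouts. Intron sense reads were counted for 5 genes, 690 in all. In Hist1h2bc, an H2B gene whose annotated model spans an intron, the intron reads of all libraries came to 67.8% of the exon reads (278 against 410), and neither intron (log2 fold change -0.27) nor exon (-0.34) was called.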

How the data were processed

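Total RNA from the testes of 2 Nef-sp-/- mice and 2 Nef-sp+/- mice was sequenced for 50 cycles. Reads were trimmed of adapters and aligned by the authors to mm9 with software of their own, perfect alignments were retained, and raw counts were deposited for each feature and category by strand. Versions of that software, and how a read matching several places was counted, are not given in the sources used here. Columns of the authors' comparison with DESeq2 (mean, log2 fold change, p and adjusted p) were not used. Columns were tied to libraries through the codes that the labels hold.

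The counts of gene exon sense features were scaled by TMM, filtered for expression (minimum count 10) and tested without covariates by the quasi-likelihood method of edgeR 4.0.16 (R 4.3.3), and p-values were adjusted over all features tested. The test was checked on simulated counts. For sums, an exact permutation test was used, two-sided. DESeq2 1.42.0 and the other alternatives are described with their effect at the end. Depth was between 20659865 and 34442517 reads per library. Intervals are at 95%.

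Gene models were GENCODE vM1 on mm9, upstream regions RefSeq on GRCm38.p6. The members and lists were chosen with earlier results of these data known. Named are the 10 most abundant genes, the testis variants, the replication-independent genes, the 5 with the smallest p, of the related lists the 2 with the smallest p, and Slbp and Eri1.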

Additional observations from a re-analysis of the deposited data

How the results depend on the processing

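No histone gene was called with the size factors of DESeq2, the library size over all categories, all features with any read, a minimum of 10 counts in each library, DESeq2 itself, or the replicate number as a block. With the replicate block 1 feature was called in all, 0 of them histone genes, and the median fold change of the histone genes was -0.09; the labels do not say that the numbers pair animals, and libraries with the same number deviated from their genotype means with a correlation of -0.08 across features. The block changed no call. DESeq2 called 2 features in all. Without an expression filter, 8 of 71 histone genes were higher and 23 lower without overlap, against 16.4% and 17.7% of all features. Leaving out each library in turn, with the lone library of a genotype assumed to vary like the others, gave 1 to 252 features called (41 without Nef-sp+/- replicate 1), 0 to 1 histone genes called, 8 to 15 higher and 24 to 40 lower without overlap, and a median of -0.101 to -0.0296; the cause of these differences was not tested, except that non-overlap is met more often with fewer libraries. The log2 fold change of H3f3a was -0.0099 with the library size over all categories. With a library left out it was -0.0400 to 0.0663 for H3f3a, -0.0597 to 0.0489 for H2afz, -0.155 to 0.0776 for H1f0, -0.140 to 0.0164 for Hist1h4j and -0.0330 to 0.226 for H2afj. Of 180 values of the named genes under alternatives, 172 kept their sign and side of the threshold. With 2 libraries per genotype the exact test of a sum cannot go below 0.333, and genes with few reads or few unique stretches have wide or uncertain values.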
